A study of Mus musculus with 2 samples.

Results

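The transcription factor genes Tbx18, Tbx2, Tbx3, Sox9, Tcf21, Twist1, Osr1, Tshz2 and Prrx1, which are expressed in mesenchyme of the developing urinary tract or related mesenchyme, were followed in ureters of mouse embryos at E14.5. The members were chosen by gene name: every non-control probe that carries one of these 9 names on the array was taken. This gave 11 probes for the 9 genes, of 39429 probes on the array. All 11 passed the filter on dim probes, so that 9 of the 20495 genes tested are members.

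The tested ureters, called Rbpj-cKO, had the genotype Tbx18(cre/+);Rbpj(fl/fl), and the control ureters Rbpj(fl/?), all on strain NMRI. Cre recombinase was driven from 1 Tbx18 allele, so that Rbpj, which encodes the protein that carries Notch signals to DNA, was removed in cells with Tbx18 expression and their descendants. Controls are not given as carrying the Cre allele, and the question mark leaves their second Rbpj allele open. There were 2 samples, and each was an Agilent array to which RNA from Rbpj-cKO and control ureters was hybridised in different colours. On replicate 1 both RNAs were labelled male and Rbpj-cKO was red (AlexaFluor647), and on replicate 2 both were labelled female and Rbpj-cKO was green (AlexaFluor555). Male and female are the labels' words here and below, and Y-linked signal in 1 channel, given with the checks below, goes against its label. Dye orientation and sex changed together between the arrays and cannot be told apart. The number of embryos pooled per channel is not stated in the labels.

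At this stage the ureter consists of an epithelial tube and a mesenchymal sheath, whose inner cells become smooth muscle and whose outer cells become connective tissue. TBX18 marks the undifferentiated sheath, and mouse embryos without it develop widened ureters because these cells do not form a proper muscle coat. TBX2 and TBX3 are T-box repressors of the inner layer, and SOX9 is required in the mouse ureter for timely smooth muscle differentiation. Notch signalling reaches genes through RBPJ, which represses its targets when no Notch intracellular domain is bound.

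Ratios for Tbx2 and Twist1 rest on single probes, and those of Tshz2 and Prrx1 can be compared between different probes of the same gene. The first 30 of the 60 bases of these probes, and of the Tbx18 probe, are therefore shown as deposited, 5′ to 3′ and in lower case throughout, since no part of a probe was singled out. Each coordinate is that of the whole probe on build mm9, and the exon or UTR that a probe lies in was not analysed here.
Tbx18 (chr9:87599514-87599573, minus strand): gtgcagaagctggttaaatcttagtatatt
Tbx2 (chr11:85655391-85655450, plus strand): tttttgctccagagggagaacgaagcgaga
Twist1 (chr12:34644411-34644470, plus strand): atggtaacaatcagaggaattttaacacct
Tshz2, brighter probe (chr2:169713711-169713770, plus strand): catgactgtacatcttaccttattgaatgg
Tshz2, dimmer probe (chr2:169711933-169711992, plus strand): aagaggacacagactctaaattcaagtgta
Prrx1, brighter probe (chr1:165175375-165175434, minus strand): cacgtgggaggttaaattaaaccagaagta
Prrx1, dimmer probe (chr1:165185408-165185467, minus strand): tcaagctagtacctcacatgagatattcat
The brighter and the dimmer Prrx1 probe are assigned to different transcripts of the gene, and both Tshz2 probes to 1 transcript. The 60 bases of the member probes held between 18 (Sox9) and 33 (Tcf21) G or C bases. The remaining probes lie at chr5:120134511-120134570 for Tbx3, chr11:112648809-112648868 for Sox9, chr10:22537563-22537622 for Tcf21 and chr12:9587390-9587449 for Osr1.

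RefSeq promoter windows on build GRCm38.p6 were matched for 5 members: Tbx18, Tshz2, Tcf21, Twist1 and Prrx1. Tbx2, Tbx3, Sox9 and Osr1 were not matched. The 250 bases before each start were searched on both strands for GTGGGAA, a sequence that RBPJ binds, and for its core TGGGAA, which every GTGGGAA contains. GTGGGAA stood in the windows of Tbx18 and Tshz2, and in 5.42% of all 32851 windows. The windows of these 2 genes are shown, in lower case with the match in capitals, here read from the opposite strand as TTCCCAC.
Tbx18 (chr9:87731261-87731510, minus strand): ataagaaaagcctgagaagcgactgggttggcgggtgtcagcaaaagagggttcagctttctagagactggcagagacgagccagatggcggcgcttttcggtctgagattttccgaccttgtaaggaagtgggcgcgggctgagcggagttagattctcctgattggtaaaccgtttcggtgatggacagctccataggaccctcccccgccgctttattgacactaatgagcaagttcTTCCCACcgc
Tshz2 (chr2:169632259-169632508, plus strand): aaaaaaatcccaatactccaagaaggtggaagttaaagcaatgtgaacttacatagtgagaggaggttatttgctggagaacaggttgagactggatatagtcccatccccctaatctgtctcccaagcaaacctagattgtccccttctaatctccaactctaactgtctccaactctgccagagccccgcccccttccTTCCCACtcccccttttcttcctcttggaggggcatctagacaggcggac
The match lay 10 to 4 bases before the start of Tbx18 and 50 to 44 bases before that of Tshz2. The core TGGGAA occurred in these and also in the window of Tcf21, 96 to 91 bases before the start, and in 21.6% of all windows. The sequence GGTGTGA, which T-box proteins bind, was in none of the 5 windows and in 3.33% of all. These matches describe the letters in the windows. No binding was measured here.

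Of the 20495 genes, 0 had a limma adjusted p under 0.05, and 372 genes (1.82%) had an unadjusted p under 0.05. The arrays ran opposite ways across genes after the dyes were turned (Pearson's r = -0.352, Spearman's rho = -0.473), so the test works with a wide spread between arrays. The targeted gene Rbpj had processed signals of 831 in Rbpj-cKO against 1851 in control on replicate 1, and of 773 against 1199 on replicate 2. These signals are of its brighter probe, whose log2 ratios of Rbpj-cKO over control were -1.13 and -0.63. A dimmer Rbpj probe had smaller ratios of the same sign, -0.48 and -0.37. Its signals were 53.5 in Rbpj-cKO against 85 in control on replicate 1, and 45.5 against 63.4 on replicate 2. Like every other gene, Rbpj did not pass the adjusted limma threshold. The Rbpj-cKO channel labelled female held signal of the Y-linked genes Ddx3y (123, against 1532 in male Rbpj-cKO and 2.12 in female control) and Eif2s3y (218, against 2452 in male Rbpj-cKO and 13.6 in female control). This is 8.04% and 8.89% of their male Rbpj-cKO signal, while the X-linked Xist was at 1398 in that channel and 1795 in female control, against 2.31 in male Rbpj-cKO and 3.95 in male control. Every member's ratio is therefore given array by array, and the value of replicate 1 is the value without that channel.

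All 11 member probes were well above background on 4 of 4 spots in every channel, and of their 44 spots per array 2 in all were left out as outliers. In these whole ureters all of the members were thus detected in Rbpj-cKO as in control. With a limma adjusted p under 0.05, 0 of the 9 members differed between the genotypes, where 0% of all genes did, and 0 of 9 reached an unadjusted p under 0.05 (1.82% of all genes, 1.29% higher and 0.527% lower). Each member had an adjusted p of 1. On both arrays, 0 of 9 members differed by 1.5-fold or more in a common direction, against 0.195% of all genes. On at least 1 array, 0 of 9 reached 1.5-fold, against 3.84%. The ratio was higher in Rbpj-cKO on both arrays for 2 members, Tbx2 and Prrx1, where 16.1% of all genes were. It was lower on both for 3, Sox9, Twist1 and Osr1, where 14.7% of all genes were, and 4 had opposite signs. In total 5 of 9 members had the same sign on both arrays, against 30.8% of all genes. RNA was measured in bulk, so fewer cells of a type and less RNA per cell cannot be told apart.

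**Figure D1:**
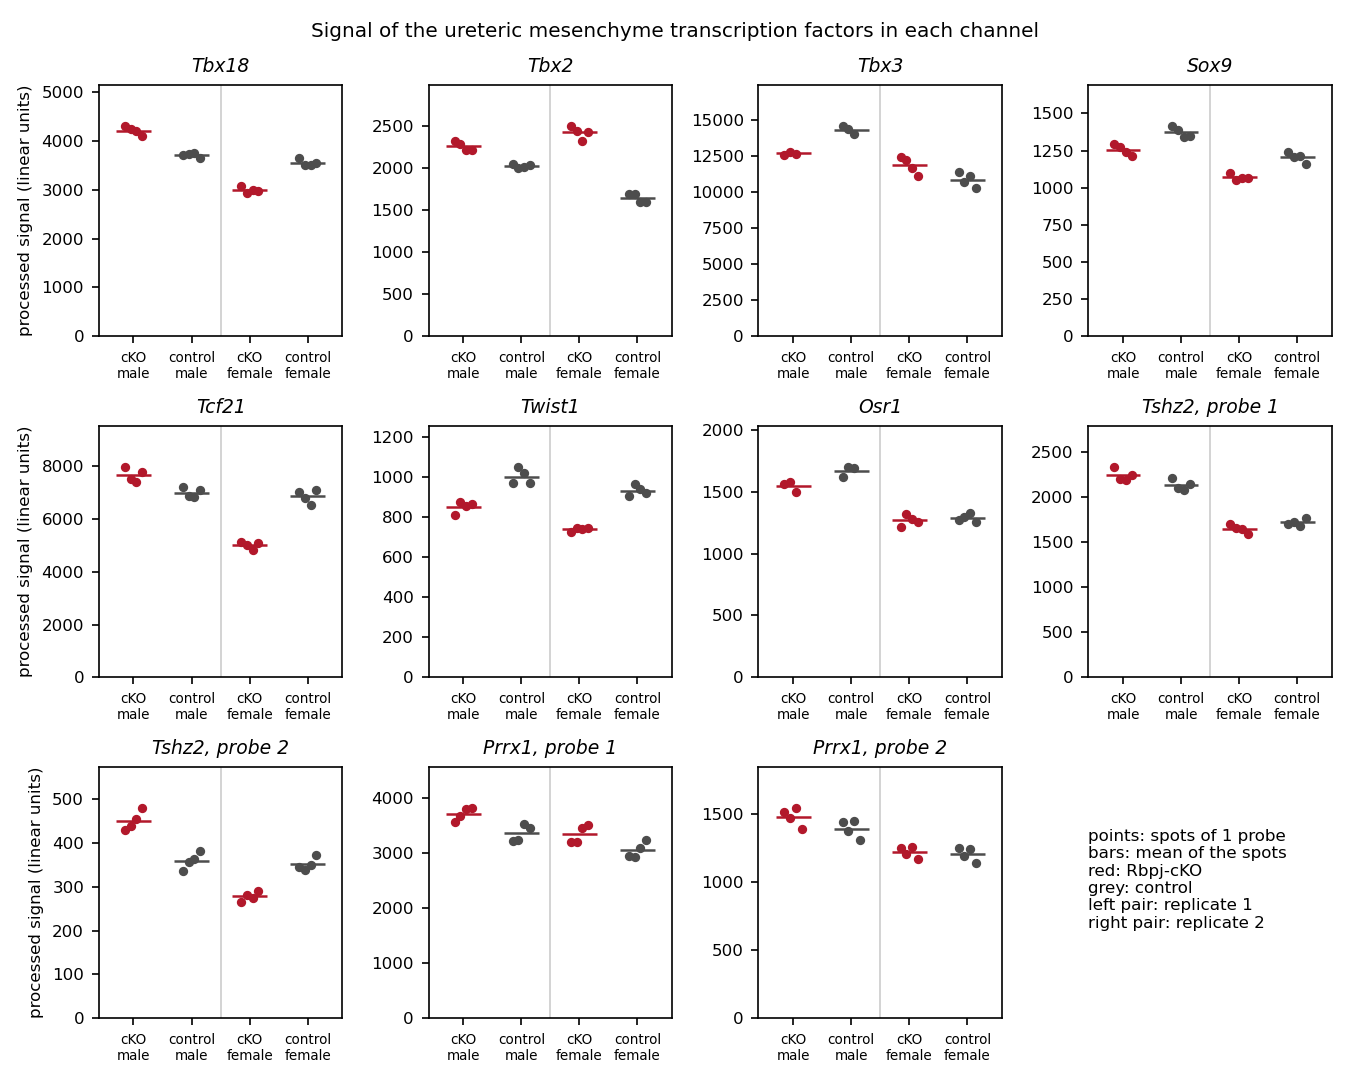
Processed signal on a linear axis from 0 for each of the 11 member probes, with Rbpj-cKO (red) left of control (grey) within each array. Points are single spots and bars their mean. Tbx2 is higher in Rbpj-cKO and Twist1 lower on both arrays with no overlap of spots, whereas Tbx18 and Tcf21 are higher in the male and lower in the female Rbpj-cKO channel.

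Among the T-box genes, Tbx2 was higher in Rbpj-cKO on both arrays, while Tbx18 and Tbx3 had opposite signs. Tbx2 had a processed signal of 2256 in Rbpj-cKO against 2021 in control on replicate 1, and of 2420 against 1641 on replicate 2. Rbpj-cKO was the higher channel on each array, and processed signals were not scaled between arrays. Single spots did not overlap between genotypes on either array: they ranged from 2213 to 2317 in Rbpj-cKO against 1996 to 2047 in control on replicate 1, and from 2319 to 2491 against 1594 to 1692 on replicate 2. Spots of an array share the same RNA, so they show how precisely that pair was measured and not how ureters vary. The log2 ratios were 0.17 and 0.52, a mean of 0.35 ± 0.24 (SD, n = 2), which is 1.27-fold higher in Rbpj-cKO. Its size exceeded that of 97.9% of all genes. The 95% confidence interval of limma ran from -0.0041 to 0.70, and the unadjusted p of limma was 0.0521 (adjusted p = 1).

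Tbx18, the gene whose locus carries the Cre, had a signal of 4211 in Rbpj-cKO against 3710 in control on replicate 1, and of 2995 against 3553 on replicate 2. The spots of the genotypes did not overlap on either array, but the order was turned between them. Log2 ratios of 0.17 and -0.24 gave a mean of -0.032 ± 0.29 (SD, n = 2), with an interval from -0.40 to 0.33 and a limma adjusted p of 1. The interval leaves room for a difference of about the size seen on either array. One Tbx18 allele was used for Cre in Rbpj-cKO only. The sources used here do not place the probe relative to the inserted Cre, so these values do not show how much of the intact transcript was present.

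Tbx3, the close relative of Tbx2, had a signal of 12694 in Rbpj-cKO against 14305 in control on replicate 1 (3 spots), and of 11879 against 10874 on replicate 2. It was lower in the male and higher in the female Rbpj-cKO channel, and on replicate 2 the spots of the genotypes overlapped. The log2 ratios were -0.17 and 0.11, with a mean of -0.032 ± 0.20 (SD, n = 2) and a limma interval from -0.37 to 0.31. Tbx2 and Tbx3 thus had different signs on replicate 1 and the same sign on replicate 2, and the difference between the genes was not tested.

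Sox9, which encodes an HMG-box factor also active in cartilage and in neural crest cells, was slightly lower in Rbpj-cKO on both arrays. Its signal was 1256 in Rbpj-cKO against 1373 in control on replicate 1, and 1072 against 1205 on replicate 2, with no overlap of spots. Log2 ratios of -0.11 and -0.19 gave a mean of -0.15 ± 0.057 (SD, n = 2) and an interval from -0.46 to 0.16 (limma adjusted p = 1). The difference is 1.11-fold.

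The bHLH genes Tcf21 and Twist1 were both lower in Rbpj-cKO on replicate 2, and on replicate 1 only Twist1 of these was. Twist1, which encodes a factor of cranial and limb mesenchyme and of epithelial-to-mesenchymal transitions, had a signal of 852 in Rbpj-cKO against 1002 in control on replicate 1, and of 738 against 931 on replicate 2. Spots ranged from 812 to 877 in Rbpj-cKO against 968 to 1047 in control on replicate 1, and from 723 to 746 against 904 to 964 on replicate 2, without overlap. The log2 ratios were -0.22 and -0.34, with mean -0.28 ± 0.084 (SD, n = 2). This is 1.21-fold lower in Rbpj-cKO, and 96.4% of all genes had a smaller mean in size. The limma interval ran from -0.59 to 0.038, with an unadjusted p of 0.0757 (limma adjusted p = 1).

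Tcf21, which encodes a factor of kidney stroma and of other visceral mesenchyme, had the widest gap between the arrays among the brightest probes of the members. Its signal was 7674 in Rbpj-cKO against 7005 in control on replicate 1, and 5017 against 6868 on replicate 2. Rbpj-cKO was the higher channel on replicate 1 and the lower one on replicate 2, and spots of the genotypes did not overlap on either array. Log2 ratios of 0.13 and -0.45 differed by 0.58, more than those of 91.2% of all genes, and their mean was -0.16 ± 0.41 (SD, n = 2; limma interval -0.57 to 0.25).

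The zinc finger genes Osr1 and Tshz2 had ratios close to 0. Osr1, which is needed for the intermediate mesoderm from which kidney and ureter arise, had a signal of 1544 in Rbpj-cKO against 1669 in control on replicate 1 (3 spots), and of 1267 against 1288 on replicate 2, where the spots overlapped. The log2 ratios were -0.10 and -0.051, with a mean of -0.075 ± 0.033 (SD, n = 2) and a limma interval from -0.39 to 0.24. Tshz2 belongs to the Teashirt family, of which Tshz3 is required for smooth muscle of the mouse ureter. The brighter Tshz2 probe had 2239 in Rbpj-cKO against 2134 in control on replicate 1, and 1647 against 1717 on replicate 2, with overlapping spots on both. Log2 ratios of 0.07 and -0.065 gave a mean of 0.0022 ± 0.10 (SD, n = 2), with an interval from -0.32 to 0.32.

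The dimmer Tshz2 probe lay wider apart. It had 451 in Rbpj-cKO against 359 in control on replicate 1, and 278 against 351 on replicate 2, and spots did not overlap on either array. The log2 ratios of 0.33 and -0.33 gave a mean of -0.0028 ± 0.47 (SD, n = 2). Both probes thus had the sign pattern of Tbx18 and Tcf21 and a mean near 0, but their ratios differed by more than the spread of the spots: the spot SD was 0.013 and 0.088 for the brighter probe and 0.018 and 0.040 for the dimmer one on replicates 1 and 2. Which of the probes follows the Tshz2 transcript more closely was not tested.

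Prrx1 is a paired-type homeobox gene of limb, craniofacial and connective tissue mesenchyme. By its brighter probe and after loess, it was higher in Rbpj-cKO by nearly the same ratio on both arrays. Centred on each array's median instead, Prrx1 had 0.32 on replicate 1 and -0.076 on replicate 2. Its brighter probe had 3717 in Rbpj-cKO against 3366 in control on replicate 1, and 3344 against 3058 on replicate 2, where single spots overlapped. The log2 ratios were 0.14 and 0.13, averaging 0.13 ± 0.011 (SD, n = 2), which is 1.10-fold, with an interval from -0.18 to 0.45 (limma adjusted p = 1). The dimmer probe, assigned to another transcript, had 1481 against 1396 on replicate 1 and 1223 against 1207 on replicate 2, for Rbpj-cKO against control. Its log2 ratios were 0.089 and 0.016, of which the one on replicate 2 did not exceed its spot SD of 0.027.

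**Figure D2:**
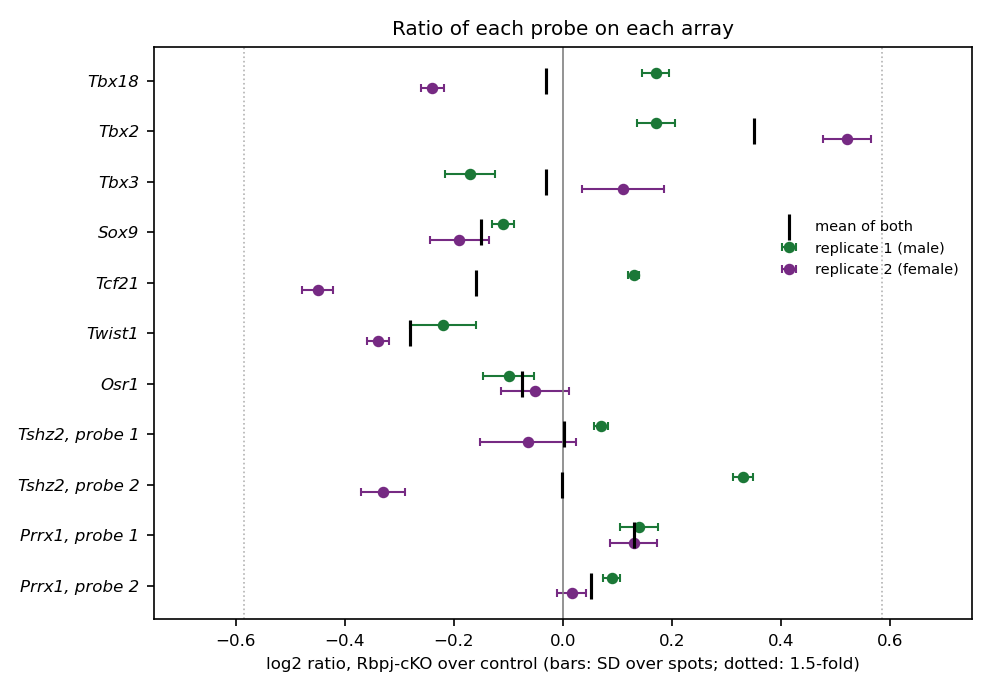
Log2 ratio of Rbpj-cKO over control for each member probe on replicate 1 (green) and replicate 2 (purple), with bars for the SD over spots, a black tick for the mean of both arrays and dotted lines at 1.5-fold. Tbx2 (0.17 and 0.52) and Twist1 (-0.22 and -0.34) lie to 1 side of 0 on both arrays, and no probe reaches 1.5-fold.

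Precision within an array was higher than between arrays. On replicate 1 the ratio of all 11 member probes exceeded its spot SD, and on replicate 2 it did so for all but Osr1, the brighter Tshz2 probe and the dimmer Prrx1 probe. The share of all genes for which this holds was not counted, so it describes the spots and sets no member apart. By the brightest probe of each gene, the log2 ratio of every spot was above 0 on both arrays for Tbx2 and Prrx1, as for 7.38% of all genes. It was below 0 for every spot on both arrays for Sox9 and Twist1, as for 5.4%. These shares are of spot ratios. For spots of the genotypes that do not overlap in signal, no share over all genes was counted. The median log2 ratio of the 9 members was 0.07 on replicate 1 and -0.065 on replicate 2, against medians of 0.0012 and 0.0046 over all genes. For the mean of both arrays the members' median was -0.032, against -0.0033 over all genes.

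Before the ratios were turned, Tbx18, Tcf21 and Tshz2 were higher in the red channel on both arrays, with log2 ratios of red over green of 0.17 and 0.24, 0.13 and 0.45, and 0.07 and 0.065. Tbx3 was lower in the red channel on both, at -0.17 and -0.11. These are values after loess, and the direction for Tbx3 depended on it. Centred on each array's median instead, Tbx3 had turned ratios of 0.14 and -0.21, which is higher in red on both arrays. Red was Rbpj-cKO on the male and control on the female array, so the sign of these 4 genes went with the colour and not with the genotype. The arrays also held RNA of different ureters. The parts of the dye, of the embryos' sex and of other differences between these ureters cannot be told apart in these values.

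**Figure D3:**
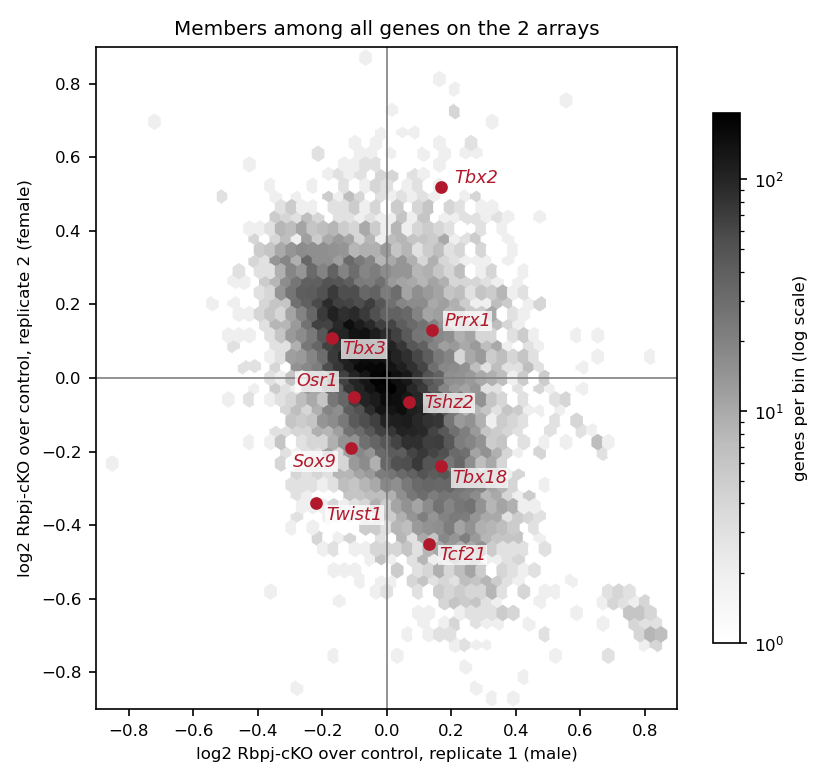
Log2 ratio of Rbpj-cKO over control on replicate 1 (horizontal) and replicate 2 (vertical). Grey hexagons count 20273 genes on a log scale, with 222 genes outside the axes, and red points are the members by their brightest probe. The cloud of genes slopes downwards. Tbx18, Tcf21, Tshz2 and Tbx3 lie in the quadrants of opposite sign, and Tbx2, Prrx1, Sox9, Osr1 and Twist1 in those of the same sign.

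Several of these signs changed with the scaling of the arrays. With the log2 ratios only centred on each array's median in place of loess, Osr1, Sox9 and Tbx3 turned positive on replicate 1, and Prrx1 and Tbx3 turned negative on replicate 2. Only 2 of the 9 members, Tbx2 and Twist1, then had the same sign on both arrays, against 21.1% of all genes. Tbx2 had 0.33 on each array and Twist1 had -0.065 and -0.52 under that centring. Tbx2 and Twist1 kept 1 sign on both arrays in all 9 settings, the loess setting included, with array ratios from 0.16 to 0.58 for Tbx2 and from -0.52 to -0.065 for Twist1. Sox9, Osr1 and Prrx1 did so in 8 of 9 settings, and Tbx18, Tbx3, Tcf21 and Tshz2 in 0. The unadjusted limma p ranged over these settings from 0.0437 to 0.169 for Tbx2 and from 0.035 to 0.239 for Twist1, and the adjusted p was 1 in each. The counts of settings include repeats. Where a gene has 1 probe, settings that change only the filter, the probe choice or the limma moderation reuse the loess ratios. Signs under those settings could not differ, so the counts do not measure how stable a sign is.

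**Figure D4:**
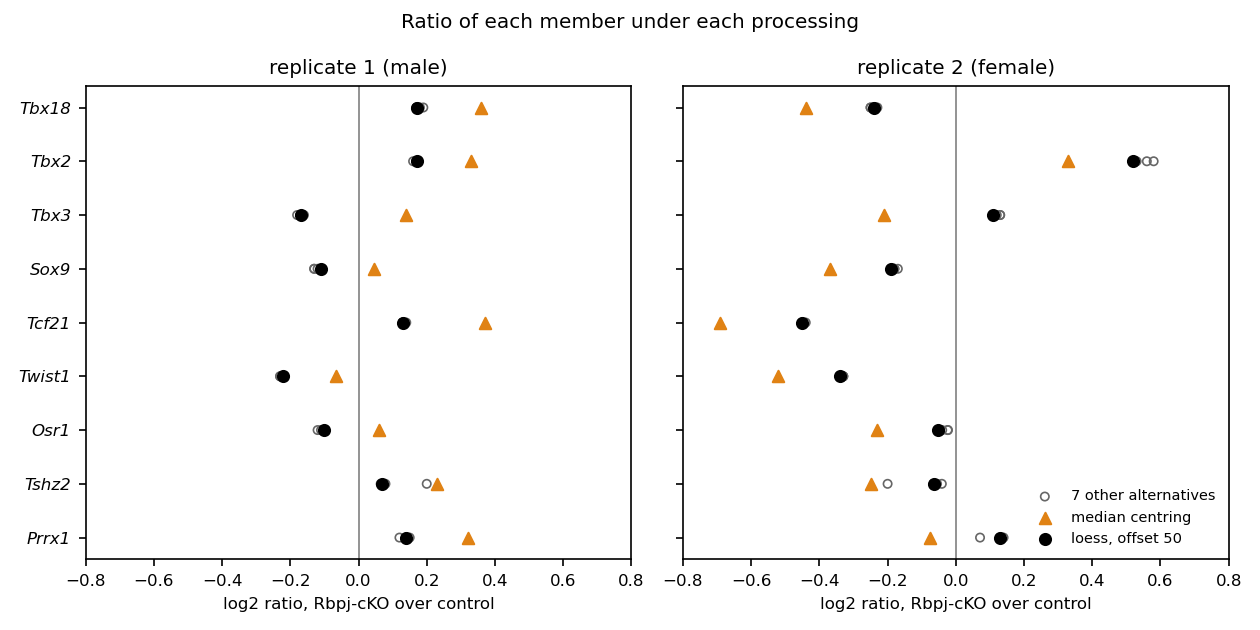
Log2 ratio of Rbpj-cKO over control for each member on replicate 1 (left) and replicate 2 (right) under loess with an offset of 50 (black), median centring (orange triangles) and 7 other alternatives (open circles). Median centring moved every member upwards on replicate 1 and downwards on replicate 2, and Tbx2 and Twist1 are the members that stay on 1 side of 0 in both panels.

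Other transcription factors of ureteric and stromal mesenchyme were taken as a list of 25 genes, all measured. Of these, 5 were higher and 10 lower in Rbpj-cKO on both arrays, against 16.1% and 14.7% of all genes, and 10 had opposite signs. The list's median was -0.039 on replicate 1 and -0.023 on replicate 2. Of the list, 0 passed at a limma adjusted p under 0.05, and 1 had an unadjusted p under 0.05, against 1.82% of all genes. Hand2, a bHLH gene of sympathetic neurons and of several kinds of mesenchyme, had the largest mean, at 0.90 ± 0.49 (SD, n = 2; 0.55 and 1.24 on the arrays), with an unadjusted limma p of 0.00231 and an adjusted p of 1. Foxd1, a forkhead gene of renal stroma, had -0.21 and -0.23, and Tshz1, the relative of Tshz2, -0.07 and -0.39. The neural crest and neuron markers were higher with Hand2: 11 of 13 had a higher and 0 a lower ratio on both arrays, and 8 of 13 had an unadjusted limma p under 0.05. Their medians were 0.45 and 0.70, and their summed signal was 68098 in Rbpj-cKO against 41557 in control on replicate 1 and 39270 against 30203 on replicate 2. Their part in the Hand2 result was not tested.

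Close relatives of the members by sequence were taken as a further list. Of 19 listed paralogs 17 were measured, Eomes and Msc not being past the filter, and 2 were higher, 2 lower and 13 of opposite sign. Over all genes 16.1% were higher, 14.7% lower and 14179 of 20495 of opposite sign, so the paralogs lay near the background. At an unadjusted limma p under 0.05 there were 2 of 17, against 1.82% of all genes. Scx, a bHLH gene of tendon, was lower in Rbpj-cKO at -0.62 and -0.28 (mean -0.45 ± 0.24, SD, n = 2; limma adjusted p = 1). Tbx20, a T-box gene best known from the heart, was higher at 0.21 and 0.49, but the probe was not well above background in the female control (0 of 4 spots), so that ratio is uncertain. The glial gene Sox10 was higher at 0.20 and 0.38.

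Of 7 genes for bHLH partners and Id inhibitors, 0 had a higher and 2 a lower ratio on both arrays, and 5 had opposite signs. Over all genes 16.1% were higher, 14.7% lower and 14179 of 20495 of opposite sign. The list's medians were -0.15 and -0.14. Id4, whose product binds E proteins and keeps them from DNA, had -0.32 and -0.22. Tcf3, which encodes an E protein that pairs with TWIST1 and TCF21, had -0.022 and -0.14, with a mean of -0.26 by its other probe. None passed at a limma adjusted p under 0.05, and 0 of 7 had an unadjusted p under 0.05, against 1.82% of all genes.

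Partners and targets of SOX9 in cartilage were taken as a list of 13, of which 11 were measured and Matn1 and Matn3 were not past the filter. Of these, 1 was higher and 5 were lower in both Rbpj-cKO channels, against 16.1% and 14.7% of all genes, and 5 had opposite signs. The lower genes include Comp, named after its values were seen, at only -0.024 and -0.032. An unadjusted limma p under 0.05 was reached by 3 of 11, against 1.82% of all genes, and an adjusted p under 0.05 by 0. Of the genes with 1 sign on both arrays, 4 collagen genes had the largest means. Col2a1, the main collagen of cartilage, had -0.42 and -0.48 (mean -0.45 ± 0.045, SD, n = 2; limma adjusted p = 1). Col9a3 had -0.43 and -0.40, Col9a1 -0.29 and -0.48, and Col9a2 -0.0019 and -0.80. The collagen genes Col11a1 (-0.34 and 0.053) and Col11a2 (0.082 and -0.24), chosen after their values were seen, had opposite signs. Sox9 itself had -0.11 and -0.19. The cartilage marker list held 7 genes, all of which except Pax1 are also in the list of SOX9 partners and targets, so it is not a separate set. It had medians of -0.10 and -0.35 over 6 measured genes, 1 higher, 3 lower and 2 of opposite sign. Matn1 was the defining marker that was not past the filter. The summed signal of these markers was 26533 in Rbpj-cKO against 25947 in control on replicate 1 and 21692 against 22985 on replicate 2. Their part in the Sox9 ratio was not tested.

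Markers of muscle and blood had, in their medians, the sign pattern of Tbx18, Tcf21 and Tshz2, above 0 in the male and below 0 in the female pair. This was not particular to them, as the mesothelial, endothelial, and gonad and adrenal lists below had it too. All 11 skeletal muscle markers had opposite signs on the arrays, as had 14179 of 20495 genes, with medians of 0.65 and -1.38. Their summed signal was 7815 in Rbpj-cKO against 3651 in control on replicate 1, and 3089 against 9775 on replicate 2. The 11 erythroid markers had medians of 0.25 and -0.59, with 0 higher, 2 lower and 9 of opposite sign. Their summed signal was 211128 in Rbpj-cKO against 135798 in control on replicate 1, and 88505 against 170089 on replicate 2. The 8 smooth muscle markers had medians of 0.12 and -0.34, with 1 higher, 3 lower and 4 of opposite sign, and the 10 fibroblast and stroma markers had 0.052 and -0.12, with 2 higher, 2 lower and 6 of opposite sign. The part of these markers in the ratios of Tbx18, Tcf21 and Tshz2 was not tested. The members' own summed signal was 36445 in Rbpj-cKO against 36586 in control on replicate 1, and 30380 against 31137 on replicate 2.

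Further lists bear on what the dissected tissue held. The 14 urothelial markers, of the epithelial tube, had medians of -0.083 and 0.0036, with 3 higher, 5 lower and 6 of opposite sign. The 5 renal stroma markers had medians of -0.013 and -0.22, with 2 higher and 3 lower on both arrays. The 7 measured nephron markers had 0.024 and 0.14, with 3 higher and 4 of opposite sign. The 5 measured gonad and adrenal markers had 0.059 and -0.24, all 5 of opposite sign. Of 6 macrophage markers 5 had a higher and 0 a lower ratio on both arrays, 1 had opposite signs, and the medians were 0.40 and 0.054. Of 6 mesothelial markers 2 were higher and 4 of opposite sign (medians 0.67 and -0.022), and of 6 endothelial markers 2 were higher, 1 lower and 3 of opposite sign (medians 0.13 and -0.16). For these counts, 16.1% of all genes were higher, 14.7% lower and 14179 of 20495 of opposite sign. In all of these lists 0 genes had a limma adjusted p under 0.05.

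**Figure D5:**
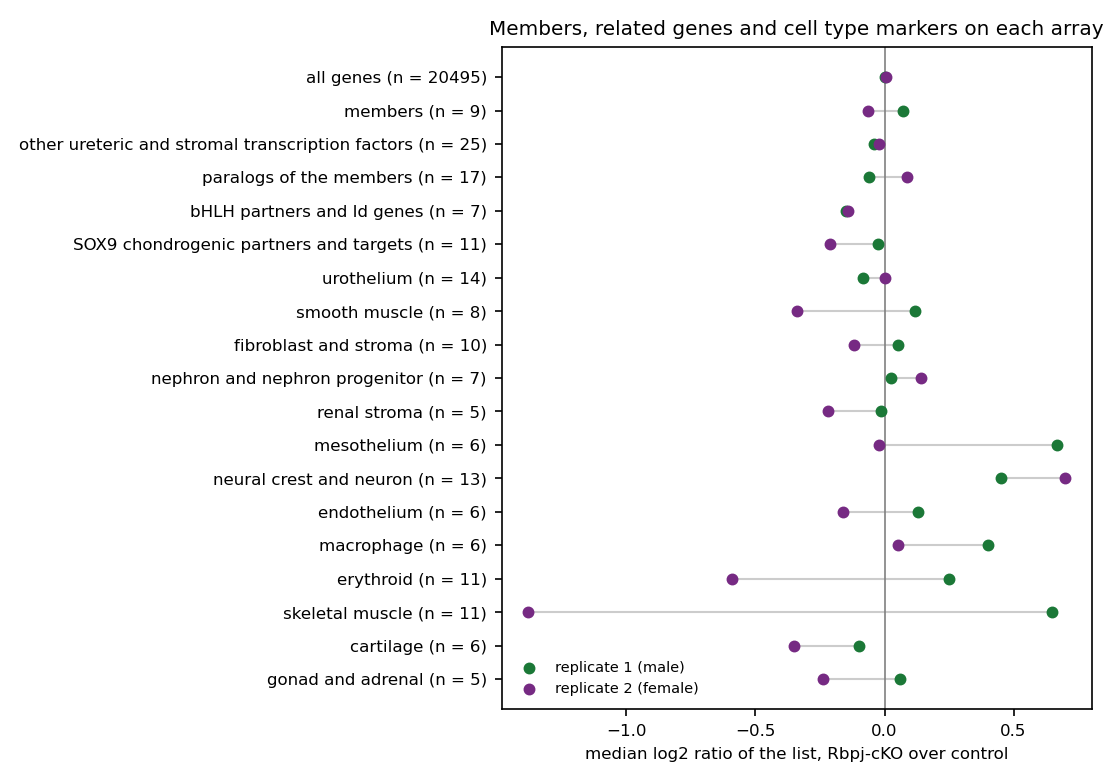
Median log2 ratio of Rbpj-cKO over control for each gene list on replicate 1 (green) and replicate 2 (purple), with the number of measured genes. The members lie at 0.07 and -0.065, skeletal muscle markers at 0.65 and -1.38, and neural crest and neuron markers at 0.45 and 0.70.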

How the data were processed

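Total RNA of E14.5 ureters (150 ng per labelling, per the labels) was measured on 2 two-colour Agilent arrays with 4 spots per probe. Mean and background median intensities of each spot were deposited on a linear scale and were not normalized, per the file headers. Per the submitters' processing notes, Agilent Feature Extraction 10.7.3.1 made the deposited processed signal intensity and the deposited log10 ratio of red over green, both background-subtracted and dye-normalized per the file headers. Deposited flags are other values of 0 or 1. The authors' deposited series table holds a score per probe, read as a signed fold of Rbpj-cKO over control. The sources used here do not state how it was made.

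Processed signals are printed as channel values, without scaling between arrays. Ratios came from normexp background correction (offset 50) and loess within each array (17263 control spots at weight 0), with limma 3.58.1 in R 4.3.3. Outlier spots (3.57% and 3.9%) were left out, spots of a probe averaged, and replicate 2 multiplied by -1. The filter asked of a probe that, on each array, 2 or more spots of 1 channel be well above background. It left 26980 probes, and the brightest represented its gene. With lmFit and eBayes the mean ratio was set against 0 (two-sided, 1 residual and 5.57 prior degrees of freedom, Benjamini-Hochberg adjustment over 20495 genes). With 2 arrays precision is limited, and since nothing says that replicates came from separate litters, p-values measure the spread between these samples only.

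Members, lists and tests were chosen with earlier results of these data known. All 9 members are named with every probe. Of each pathway list, counts are given and up to 4 genes with the largest mean among those of the same sign on both arrays. Of these, 1 gene is not reported here. Of each cell type list, medians and counts are given. The RefSeq table (GRCm38.p6) gave gene names, and probe coordinates are mm9 as in the files. Python and pandas read the sequences. Alternatives were the scanner's log ratio, median centring, an offset of 0, no filter, the mean over probes, each probe on its own, trend with robust moderation, the authors' table and each array alone.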

Additional observations from a re-analysis of the deposited data

Results flagged for a closer look

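For 4 members the log2 ratio was above 0 in one pair and below 0 in the other, and with 1 array per sex, and the dyes exchanged between the arrays, this difference was not tested. Replicate 1 (male) minus replicate 2 (female) gave 0.41 for Tbx18, -0.28 for Tbx3, 0.58 for Tcf21 and 0.13 for Tshz2. The Tshz2 value is of the brighter probe, and the dimmer one gave 0.66. For Tbx3 the direction was reversed by median centring, with 0.14 on replicate 1 and -0.21 on replicate 2. Opposite signs were the more frequent case over all genes, of which 14179 of 20495 had them.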

How the results depend on the processing

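Under the alternatives that use both arrays, the members' adjusted p was 1, 0 of 9 reached 1.5-fold the same way on both arrays, and the members' mean log2 ratios kept their direction except for Tshz2, which was -0.0085 with median centring and -0.00029 with the mean over probes, against 0.0022. The cause was not tested. For members with 1 probe, alternatives that change only the filter, the probe choice or the moderation reuse the same ratios. Their mean could not change there. Median centring moved every member up on replicate 1 and down on replicate 2, which largely cancels in the mean. The kept direction of the means is therefore largely built in. The count of members with the same sign on both arrays was 2 with median centring, against 5. The members' median was -0.065 without replicate 1 and 0.07 without replicate 2, against -0.032 for both arrays. A single array has no test, and its sign was opposite to that of the mean for Tbx18 (0.17) and Tcf21 (0.13) without replicate 2, for Tbx3 (0.11) without replicate 1, and for Tshz2 (-0.065) without replicate 1. Genes with a limma adjusted p under 0.05 numbered 2 with the scanner's log ratio and 5 with trend and robust moderation, none of the 5 a member, against 0. Each array holds both genotypes, so the ratio pairs them and the test of it against 0 is a paired one. No further pairing between samples was possible. With 2 arrays, 1 residual degree of freedom and arrays that ran opposite ways, small differences of these genes could not be detected.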
